A study of Homo sapiens with 6 samples.

Results

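The complement and acute phase genes described here are C3, CFB, C1R, C1S, CP, SAA1, SAA2, LCN2 and SERPINA3, 9 of the 60664 genes in the deposited table. They were chosen by symbol, with earlier results of these libraries known, and both their hairpin difference and their differences between library numbers entered that choice. Their values along those axes are therefore a description, and no test is built on them. RNA was sequenced from SKOV3 cultures, an established human ovarian carcinoma line, in 3 libraries with a short hairpin RNA against JUP (shJUP 1 to 3) and 3 with a control hairpin (shNC 1 to 3), whose genotype the labels give as WT. JUP encodes plakoglobin, a protein of desmosomes and adherens junctions. Both groups carry a hairpin construct, and the sources used here give no hairpin sequence, vector or culture time and do not say whether the cells were a clone. The libraries of each hairpin are numbered 1 to 3 and are described as independent biological replicates, without saying what a number stands for.

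Complement is a cascade of plasma proteins that tags and lyses targets. In its classical pathway C1q carries the serine proteases C1r and C1s, C1s cleaves C4 and C2, and the resulting enzyme cleaves C3, whose fragment C3b also builds the alternative pathway enzyme together with factor B (CFB). Acute phase proteins such as serum amyloid A (SAA1, SAA2), ceruloplasmin (CP), lipocalin 2 (LCN2) and alpha-1-antichymotrypsin (SERPINA3) are made in larger amounts in inflammation, mainly by the liver, and epithelial and carcinoma cells also transcribe many of them. Interleukin 1, tumour necrosis factor and interleukin 6 are their best known inducers, acting through NF-kB, C/EBP and STAT3 transcription factors.

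Promoter sequences are shown for members with an entry in the RefSeq table (GRCh38.p14, 250 bases before to 50 bases after the gene start). CFB, C1R, LCN2 and SERPINA3 had an entry. C3, C1S, CP, SAA1 and SAA2 had none. Capitals mark matches, on either strand, to the NF-kB letters (GGGA, then any 4 bases, then CC), the C/EBP letters (TTNNGCAA) and the STAT letters (TTCNNNGAA), which were picked with these sequences in view.
CFB (chr6:31945845-31946144, plus strand): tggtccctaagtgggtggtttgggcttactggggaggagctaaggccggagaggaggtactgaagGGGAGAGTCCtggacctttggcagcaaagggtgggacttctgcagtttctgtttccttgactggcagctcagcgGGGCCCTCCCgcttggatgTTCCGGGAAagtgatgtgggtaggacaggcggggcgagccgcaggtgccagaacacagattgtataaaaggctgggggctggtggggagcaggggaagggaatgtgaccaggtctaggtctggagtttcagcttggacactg
C1R (chr12:7092396-7092695, minus strand): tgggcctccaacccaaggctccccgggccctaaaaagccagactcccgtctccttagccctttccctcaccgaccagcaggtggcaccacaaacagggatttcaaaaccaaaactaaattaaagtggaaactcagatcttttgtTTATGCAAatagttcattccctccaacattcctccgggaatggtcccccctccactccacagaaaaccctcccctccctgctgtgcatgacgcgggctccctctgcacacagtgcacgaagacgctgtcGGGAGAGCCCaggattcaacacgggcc
LCN2 (chr9:128149203-128149502, plus strand): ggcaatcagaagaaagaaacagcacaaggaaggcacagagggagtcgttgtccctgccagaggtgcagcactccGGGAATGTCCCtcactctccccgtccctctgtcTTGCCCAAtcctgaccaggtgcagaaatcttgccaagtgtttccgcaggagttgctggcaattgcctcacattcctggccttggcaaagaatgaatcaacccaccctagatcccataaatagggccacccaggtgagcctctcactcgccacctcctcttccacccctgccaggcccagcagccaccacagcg
SERPINA3 (chr14:94612141-94612440, plus strand): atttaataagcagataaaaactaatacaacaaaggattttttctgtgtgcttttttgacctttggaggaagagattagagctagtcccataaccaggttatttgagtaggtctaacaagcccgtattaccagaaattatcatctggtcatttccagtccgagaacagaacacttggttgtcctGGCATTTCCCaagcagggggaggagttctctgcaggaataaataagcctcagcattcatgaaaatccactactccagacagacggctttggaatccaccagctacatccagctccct
The CFB window held NF-kB letters starting 185 and 111 bases before the gene start and STAT letters 92 bases before it. The C1R window held C/EBP letters 106 bases before the start and NF-kB letters 23 bases after it. In the LCN2 window 2 overlapping NF-kB matches, on opposite strands, started 176 and 175 bases before the start, and C/EBP letters lay at 143. The SERPINA3 window held NF-kB letters at 67 bases before the start. A second C1R entry, not printed, matched all 3 motifs. Of all 35116 promoter windows listed there, 25.6% held the NF-kB letters, 10.5% the C/EBP letters and 7.7% the STAT letters. A match is a description of letters and not a binding site.

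SAA1 and SAA2 are near-identical neighbours, so their counts are uncertain one against the other. Over the 366 coding bases of each, in GENCODE 29, 355 were identical (97.0%), 11 differed, and the longest identical run was 186 bases. The stretch that holds 10 of those differences, coding bases 204 to 323, shows which letters can separate their reads, with the differing bases in capitals.
SAA1: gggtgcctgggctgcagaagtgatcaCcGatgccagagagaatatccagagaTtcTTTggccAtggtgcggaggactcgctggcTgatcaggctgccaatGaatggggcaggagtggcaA
SAA2: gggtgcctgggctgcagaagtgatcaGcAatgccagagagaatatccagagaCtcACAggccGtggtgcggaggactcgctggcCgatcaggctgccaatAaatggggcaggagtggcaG
C1R and C1S, paralogs that also lie side by side, were far less alike, with 53.4% identical coding bases and a longest identical run of 14. Other counts are uncertain because exons overlap on the same strand. CFB shares 45% of its exon bases with a readthrough gene that had 0 counts in 5 libraries and 3 counts in shJUP 3, and SERPINA3 shares 31.8% with another that had at most 10 counts. C1R shares 11.4% of its exon bases with C1RL, and SAA2 shares 12% with the SAA2-SAA4 readthrough (0 to 20 counts).

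All 9 genes passed the filter on low counts, among 15867 tested genes. Library totals ranged from 17456121 to 19279514 estimated counts. Levels below are in CPM, counts scaled to the size of each library after TMM scaling. The members together made up 62.5, 769 and 106 CPM in shJUP 1, 2 and 3, against 56.2, 1327 and 121 CPM in shNC 1, 2 and 3. The libraries numbered 2 stood high in both hairpin groups. In bulk RNA, fewer cells with the transcripts and less transcript per cell cannot be told apart. JUP itself was at 39.9, 93.6 and 24.6 CPM in shJUP 1, 2 and 3, against 104, 133 and 101 CPM in shNC 1, 2 and 3, so it too was highest in number 2 of each hairpin, and its part in the results below was not tested.

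**Figure D1:**
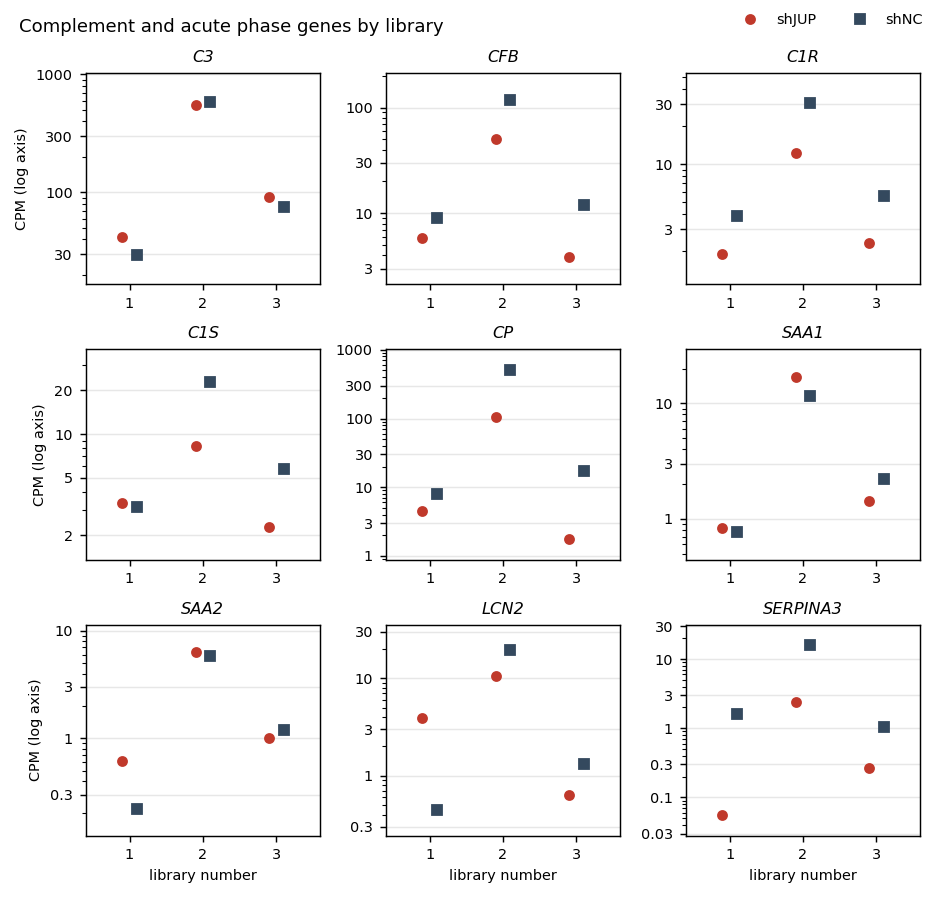
CPM of each of the 9 genes (log axis) against library number, with shJUP as circles and shNC as squares, 1 point per library. In every panel the number 2 library is the highest of its hairpin group, and the ranges of the groups overlap.

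C1R, the protease that activates C1s, was at 1.90, 12.3 and 2.34 CPM in shJUP 1, 2 and 3, against 3.81, 30.9 and 5.60 CPM in shNC 1, 2 and 3. Every shJUP library lay below the shNC library of its number, yet shJUP 2 stood above shNC 1 and shNC 3, so the groups overlapped. Group levels were 5.52 ± 5.9 CPM in the shJUP libraries and 13.5 ± 15.2 CPM in the shNC libraries (SD, n = 3 each). The ratio of shJUP over shNC was 0.497 (95% counting interval 0.320 to 0.761) in number 1, 0.399 (0.341 to 0.465) in number 2 and 0.417 (0.286 to 0.599) in number 3. These intervals overlapped, but they cover counting error only, and the ratios depend on pairing libraries by their number.

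C1S, the protease that cleaves C4 and C2, was at 3.35, 8.27 and 2.28 CPM in shJUP 1, 2 and 3, against 3.15, 23.0 and 5.71 CPM in shNC 1, 2 and 3. It had the smallest rise in number 2 of all members. Its hairpin ratio was 1.06 (0.727 to 1.55) in number 1, where counting error covered no difference, and 0.360 (0.298 to 0.434) and 0.400 (0.274 to 0.575) in numbers 2 and 3. C1S and C1R are read in opposite directions from adjacent positions, and the next gene beyond C1R is C1RL.

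C1RL, a C1r-like serine protease singled out after its values were seen, was at 6.19, 20.6 and 7.22 CPM in shJUP 1, 2 and 3, against 13.3, 34.4 and 13.1 CPM in shNC 1, 2 and 3. It had the order of C1R in each pair, but reads from the exon bases it shares with C1R cannot be told apart. EMG1, which shares 3.54% of the C1S exon bases, went the other way by number, with 579, 378 and 642 counts in shJUP 1, 2 and 3 and 410, 289 and 467 counts in shNC 1, 2 and 3.

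C3, the component on which all complement pathways converge, was at 41.6, 556 and 91.9 CPM in shJUP 1, 2 and 3, against 29.2, 587 and 75.0 CPM in shNC 1, 2 and 3. The hairpin groups were level, at 230 ± 284 CPM in the shJUP libraries and 230 ± 310 CPM in the shNC libraries (SD, n = 3 each), with a log2 fold change of -0.004 (SE 1.23). Number 2 exceeded the pooled numbers 1 and 3 by 8.25-fold (counting interval 7.90 to 8.62) in shJUP and 11.2-fold (10.7 to 11.8) in shNC. Number 3 was also above number 1 in both hairpins. The ratio of shJUP over shNC was 1.42 (1.27 to 1.59) in number 1, 0.947 (0.922 to 0.973) in number 2 and 1.23 (1.14 to 1.32) in number 3, so its direction differed between pairs.

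CFB, which joins C3b in the alternative pathway enzyme, was at 5.86, 50.5 and 3.82 CPM in shJUP 1, 2 and 3, against 9.06, 119 and 12.1 CPM in shNC 1, 2 and 3. Like C3 it was highest in number 2 of both hairpins, but each shJUP library was below its shNC counterpart. The ratio was 0.646 (0.501 to 0.831) in number 1, 0.426 (0.394 to 0.460) in number 2 and 0.317 (0.239 to 0.415) in number 3, with intervals for numbers 1 and 3 that did not meet.

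CP, the copper-carrying ferroxidase of plasma, differed widely between libraries. It stood at 4.46, 106 and 1.75 CPM in shJUP 1, 2 and 3, against 7.85, 515 and 17 CPM in shNC 1, 2 and 3. In number 2 it exceeded the pooled numbers 1 and 3 by 34.4-fold (28.4 to 41.9) in shJUP and 41.4-fold (37.7 to 45.6) in shNC. The ratio of shJUP over shNC was 0.569 (0.427 to 0.753), 0.205 (0.195 to 0.215) and 0.103 (0.0698 to 0.148) in numbers 1, 2 and 3, lower in each pair but by unequal amounts, with no overlap between those intervals.

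SERPINA3, an inhibitor of neutrophil cathepsin G, had the lowest per-length level of the members in shJUP. It had 1, 45 and 5 counts in shJUP 1, 2 and 3, against 29, 296 and 19 counts in shNC 1, 2 and 3, or 0.0558, 2.40 and 0.266 CPM against 1.60, 15.7 and 1.03 CPM. Each shJUP library was below its shNC counterpart, and shJUP 2 alone reached into the shNC range. The ratio was 0.153 (0.109 to 0.209) in number 2 and 0.257 (0.0749 to 0.711) in number 3. In number 1 the 1 count left it at 0.0348 with an interval of 0.000852 to 0.210.

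SAA1 and SAA2, apolipoproteins of high density lipoprotein in the acute phase, did not share the lower shJUP levels. SAA1 was at 0.837, 16.9 and 1.43 CPM in shJUP 1, 2 and 3, against 0.774, 11.5 and 2.23 CPM in shNC 1, 2 and 3. SAA2 was at 0.614, 6.40 and 1.01 CPM in shJUP 1, 2 and 3, against 0.221, 5.84 and 1.20 CPM in shNC 1, 2 and 3. The SAA1 ratio exceeded 1 beyond counting error in number 2 only, at 1.46 (1.23 to 1.75), and the SAA2 intervals included 1 in every pair.

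Because reads may be divided between these copies, their sum is the firmer value. It was 1.45, 23.3 and 2.44 CPM in shJUP 1, 2 and 3 and 0.995, 17.4 and 3.43 CPM in shNC 1, 2 and 3. SAA1 took 57.7% to 77.8% of the sum over the 6 libraries, and only in shNC 1 were both estimated counts whole numbers.

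LCN2, which binds iron-loaded bacterial siderophores, was the member whose hairpin ratio swung most in direction between numbers. It was at 3.91, 10.6 and 0.637 CPM in shJUP 1, 2 and 3, against 0.442, 19.5 and 1.31 CPM in shNC 1, 2 and 3. The shJUP library was higher in number 1, with a ratio of 8.83 (4.24 to 21.3), and lower in number 2, at 0.544 (0.456 to 0.649). In number 3 it was 0.488 (0.222 to 1.01), within counting error of no difference.

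Per length of transcript, the order of the members depended on the library. Per-length levels (TPM, from merged GENCODE 29 exons) put C3 first in shJUP 1, 2 and 3 and in shNC 1 and 3, at 20.9, 250 and 43.1 in shJUP and 13.5 and 34.5 in those shNC libraries. In shNC 2 CP was at 259 and C3 at 258 on that scale, a gap far smaller than the spread between libraries. SAA1, with the fewest exon bases, came second in shJUP 2, at 79.2 against 54.2 for CP and 37.8 for CFB. SERPINA3 was last in 4 of the 6 libraries by per-length level, at 0.0467, 1.79 and 0.207 in shJUP 1, 2 and 3 and 0.791 in shNC 3.

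**Figure D2:**
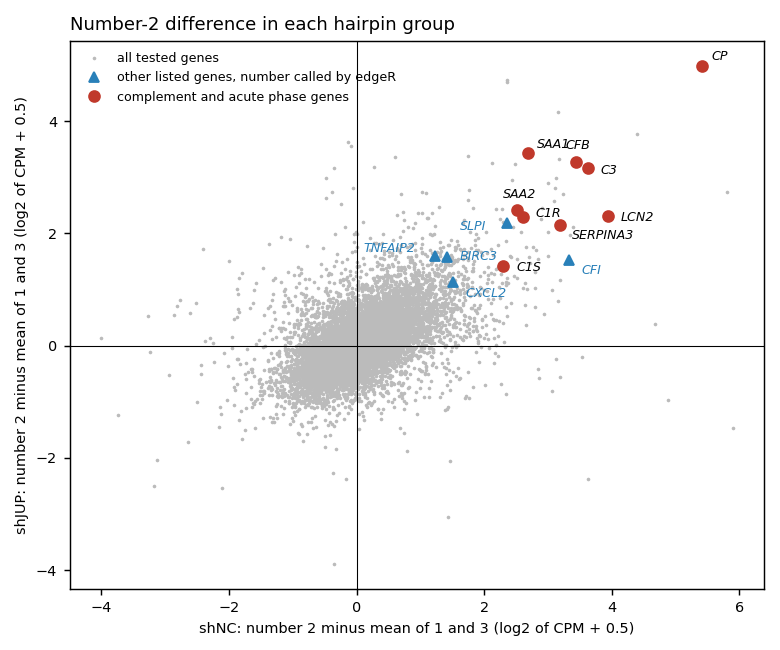
Difference of the number 2 library from the mean of numbers 1 and 3, in log2 of CPM + 0.5, in shJUP (vertical axis) and shNC (horizontal axis). Each small point is a tested gene, circles are the 9 complement and acute phase genes, and triangles are 5 other listed genes called between library numbers by edgeR, with CP farthest out at 4.99 and 5.42.

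Read by library number, all 9 members were highest in number 2 of both hairpins, as were 25.8% of the tested genes. On the log2 (CPM + 0.5) scale 8 of the 9 stood at least 4-fold above the mean of numbers 1 and 3 in both hairpins, against 37 genes or 0.233% of those tested. C1S was the exception, at 1.42 in shJUP and 2.30 in shNC. The median difference over the members was 2.41 in shJUP and 3.18 in shNC, beside 0.00 and -0.01 over all tested genes. When all tested genes were ordered by the smaller of their 2 differences, CP came 1, CFB 3, C3 6, SAA1 12, SAA2 18, LCN2 22, C1R 23, SERPINA3 31 and C1S 107. A fit of hairpin and library number called 7 of the 9 by edgeR, all but C1S and LCN2, where 100 genes or 0.63% were called in all, and 8 of the 9 by DESeq2, where 6.93% were called. At an unadjusted p under 0.05 edgeR held all 9 and 3355 genes in total (21.1%). These counts restate what chose the members and nothing is read from them. They also rest on few libraries: edgeR called 1 member without shJUP 2 and 1 without shNC 2, 2 without shJUP 3 and 2 without shNC 3, 6 without shNC 1 and 9 without shJUP 1.

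Of the sum of squares of log2 (CPM + 0.5) over the 6 libraries, library number took 99% for C3, 98% for SAA1, 97.6% for SAA2, 87.7% for CFB, 83.3% for CP, 81.9% for C1R, 81.3% for LCN2, 73.4% for C1S and 63.5% for SERPINA3. The median over all tested genes was 48.2%. Hairpin took 32.7% for SERPINA3, 17.6% for C1R, 16.5% for C1S, 13.8% for CP and 10.9% for CFB, and at most 0.6% for C3, SAA1, SAA2 and LCN2, beside a median of 18.7%. The remainder was 18.2% for LCN2, the largest of the members, beside a median of 18.7% over all tested genes.

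**Figure D3:**
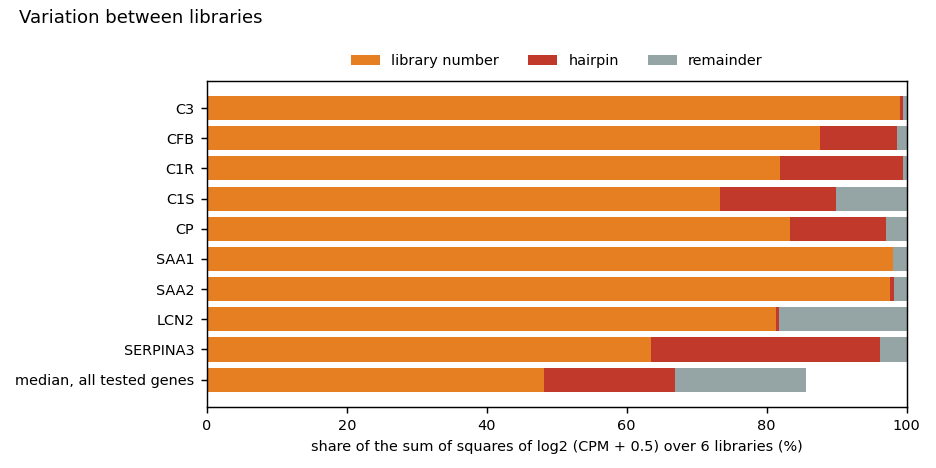
Share of the sum of squares of log2 (CPM + 0.5) over the 6 libraries (%) that goes with library number, hairpin and the remainder, for each member and as medians over all tested genes, which need not add to 100. Number takes the largest share for every member, from 63.5% for SERPINA3 to 99% for C3.

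Read by hairpin, the members fell into genes lower in shJUP within every number and genes that were not. This split takes same-numbered libraries together, and pairing by number was clear for number 2 only. C1S missed the lower class by number 1 alone, at 3.35 CPM in shJUP 1 and 3.15 CPM in shNC 1. CFB, C1R, CP and SERPINA3 were lower in each of numbers 1, 2 and 3, 4 of 9 beside 22.5% of the tested genes. The log2 fold changes of shJUP over shNC were -1.21 (SE 1.24) for CFB, -1.28 (SE 0.97) for C1R, -1.19 (SE 0.78) for C1S, -2.27 (SE 1.84) for CP and -2.74 (SE 1.36) for SERPINA3. For LCN2 the value was -0.49 (SE 1.33), for SAA1 0.40 (SE 1.25) and for SAA2 0.14 (SE 1.16). The median over the 9 was -1.19, with 7 below 0, beside a median of -0.01 and 51.4% below 0 over all tested genes. The edgeR test called none of the 9, nor any other gene (0%). At an unadjusted p under 0.05 it held 1594 genes (10%) and none of the 9. Without shNC 2 the edgeR log2 fold changes of CFB (0.93), C1R (0.23), C1S (0.06) and CP (1.59) lay above 0, and that of SERPINA3 was -0.53, whereas without shJUP 2 they were -3.27, -2.66, -1.91, -5.86 and -5.18 in that order.

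A block for library number narrowed the errors. With it the log2 fold changes were -1.17 (SE 0.19) for CFB, -1.22 (SE 0.16) for C1R, -2.11 (SE 0.40) for CP, -2.81 (SE 0.42) for SERPINA3, -0.95 (SE 0.33) for C1S and 0.23 (SE 0.13) for C3. LCN2 stood at 0.15 (SE 0.78), SAA1 at 0.07 (SE 0.29) and SAA2 at 0.25 (SE 0.35). By edgeR the block called none of the 9 and 1 gene in all (0.0063%). DESeq2 with the block gave adjusted p-values of 2.94e-05 for CFB, 9.04e-04 for C1R, 0.0279 for CP and 2.27e-04 for SERPINA3, 4 of 9 lower where 2.91% of the genes with an adjusted p were lower and 5.25% were called in either direction. DESeq2 without the block called none of the 9 and 1.19% of genes, and it gave CFB, CP and SERPINA3 no adjusted p. The rule had used this contrast, so these p-values are printed as values of the fit and support nothing.

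**Figure D4:**
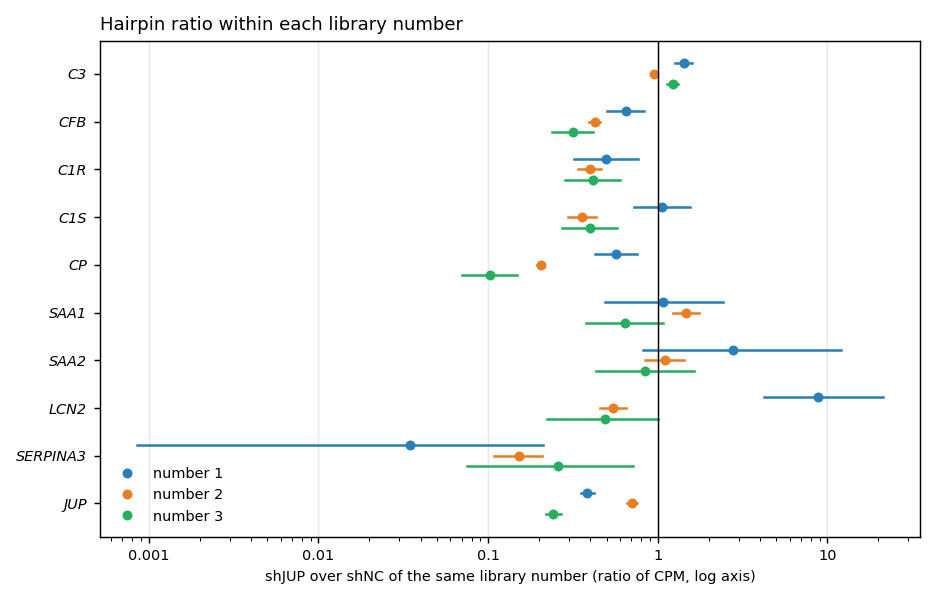
Ratio of CPM of shJUP over shNC within each library number (log axis), with 95% counting intervals, for the 9 members and JUP. CFB, C1R, CP, SERPINA3 and JUP lie below 1 in all 3 numbers, whereas LCN2 lies at 8.83 in number 1 and at 0.544 and 0.488 in numbers 2 and 3.

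Beside the member ratios, JUP stood at 0.384 (0.352 to 0.419), 0.705 (0.663 to 0.750) and 0.243 (0.219 to 0.269) of its shNC partner in numbers 1, 2 and 3. CP, CFB, SAA1, SAA2 and LCN2 had their lowest ratio in number 3. C3, C1R and C1S had theirs in number 2 and SERPINA3, on 1 count, in number 1. Pairing by number was clear for number 2 only. No share of all tested genes is given beside these orders, so nothing is read from them. Among the members lowest in number 3, only CP had an interval there that was clear of its other numbers. For CFB (0.239 to 0.415) and LCN2 (0.222 to 1.01) it overlapped that of number 2 (0.394 to 0.46 and 0.456 to 0.649). For SAA1 and SAA2 it overlapped that of number 1. For C1R and C1S the intervals of numbers 2 and 3 overlapped, at 0.399 (0.341 to 0.465) and 0.417 (0.286 to 0.599) for C1R and 0.360 (0.298 to 0.434) and 0.400 (0.274 to 0.575) for C1S. IL6, an inducer of acute phase genes, lay above 1 in each pair, at 2.54 (2.29 to 2.81), 3.55 (3.16 to 4.00) and 1.80 (1.62 to 2.01). JUP, CFB, C1R, CP and SERPINA3 lay below 1 in each pair, and the other members lay above 1 in some pairs.

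Across the 6 libraries the members resembled each other, with pairwise Pearson r of log2 (CPM + 0.5) from 0.664 (LCN2 and SERPINA3) to 0.997 (CFB and CP). Differences between library numbers entered the choice of the members, so this resemblance restates that choice and nothing is read from it. Among 11363 other genes with a mean of at least 5 CPM, the closest in pattern were FZD1 for CFB and for CP (r = 0.999 each), G0S2 for C1R, NCOA1 for C1S and ITGB6 for SERPINA3 (0.998 each), TMTC2 for LCN2 (0.997), FAM229B for C3 (0.996) and SAA2 (0.995), and MAP3K5 for SAA1 (0.992). The points share 6 libraries, and r ignores the size of a change. FZD1, a Wnt receptor, spanned 28.6 to 60.7 CPM, whereas CP spanned 1.75 to 515 CPM. Closest to the mean profile of the members was PTGS2, which encodes cyclooxygenase 2 (r = 0.997), at 5.8, 44.2 and 5.2 CPM in shJUP 1, 2 and 3, against 6.36, 76.4 and 13.1 CPM in shNC 1, 2 and 3. KIF13B (0.995), PHF21A (0.994), PDE9A (0.993) and PALM (0.993) came next.

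The other genes of the cascades were read from lists drawn up with earlier results known. Most of the plasma components were hardly transcribed. Of 15 initiation genes 4 were tested and 0 passed edgeR by hairpin. C1QA, C1QB and C1QC, the carrier of C1r and C1s, had 0 counts in every library, and MBL2 and FCN2, recognition molecules of the lectin pathway, had none either. C4A and C4B, near-identical copies and so uncertain, were at 0.320 to 1.99 CPM with log2 fold changes of 0.03 (SE 0.40) and -0.20 (SE 0.51). MASP2, a protease of the lectin pathway, was at 0.59 (SE 0.40) and COLEC12, a collectin, at 0.39 (SE 0.65).

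C2, the substrate of C1s and the neighbour of CFB, had 8, 14 and 2 counts in shJUP 1, 2 and 3 and 2, 52 and 4 counts in shNC 1, 2 and 3. It was highest in number 2 of both hairpins as well, at counts too low for the filter. Of 9 further alternative and terminal pathway genes only CFD, the protease that activates factor B (log2 0.07, SE 0.37), and C5 (-0.47, SE 0.50) were tested. C8A, C8B and C9, parts of the lytic pore, had 0 counts throughout.

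Among 14 complement regulators 7 were tested, 5 with log2 fold changes below 0 and a median of -0.27. None passed edgeR by hairpin, and DESeq2 with the block called 2 lower, CFI and CD55, where 2.91% of all genes were called lower. CFI, the protease that cleaves C3b, was at 0.167, 1.33 and 0.106 CPM in shJUP 1, 2 and 3, against 0.553, 12.1 and 0.979 CPM in shNC 1, 2 and 3 (log2 -3.06, SE 1.36, DESeq2 adjusted p with the block 0.00118). It was lower in shJUP in every pair and highest in number 2 of both hairpins. With 1 library left out of the edgeR fit CFI lay between -4.99 (without shJUP 2) and -0.51 (without shNC 2).

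CD55, a membrane protein that speeds decay of the C3-cleaving enzymes, was at 77.1, 102 and 82.0 CPM in shJUP 1, 2 and 3, against 146, 221 and 112 CPM in shNC 1, 2 and 3, without overlap between groups. Such separation was seen for 17% of the tested genes. The log2 fold change was -0.87 (SE 0.25), with an adjusted p of 0.402 by edgeR, 0.0605 by DESeq2 and 4.84e-05 by DESeq2 with the block. CD59, which blocks the lytic pore, was at -0.36 (SE 0.15), and CD46, a membrane cofactor for C3b cleavage, at 0.32 (SE 0.20). SERPING1, the inhibitor of C1r and C1s, was near 1 to 3 CPM and was not lower in shJUP in any pair, with ratios of 1.16 (0.610 to 2.23), 1.51 (0.982 to 2.33) and 1.67 (0.831 to 3.5) and a log2 fold change of 0.52 (SE 0.51).

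The 4 tested complement receptors of 10 listed lay above 0, at a median of 0.71, and none passed edgeR or DESeq2. They were ITGAX (log2 1.58, SE 0.54) and ITGB2 (0.55, SE 0.32), chains of an integrin that binds C3 fragments, C5AR1 (0.88, SE 0.48) and C1QBP (0.28, SE 0.18). Depth limits ITGAX, with 3 to 31 counts in a library, and C5AR1, with 6 to 20. C3AR1, the receptor of C3a, had only 4 to 11 counts in each library, too few for the filter.

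Acute phase genes outside the chosen 9 were mostly silent. Of 19 further positive acute phase genes 4 were tested and none passed by hairpin. CRP, APCS, ORM1, ORM2 and HAMP, proteins of the liver response, had 0 counts in all 6 libraries. SERPINA1, alpha-1-antitrypsin, was at 14, 41.8 and 12.7 CPM in shJUP 1, 2 and 3, against 11.4, 18.1 and 13.0 CPM in shNC 1, 2 and 3, highest in number 2 of both hairpins, with an adjusted p for library number of 0.142 by edgeR and 0.00863 by DESeq2. By hairpin its log2 fold change was 0.69 (SE 0.46), beside -0.93 (SE 0.46) for ITIH4, 0.27 (SE 0.28) for PTX3 and -0.24 (SE 0.44) for HPX. Of 7 negative acute phase genes, which the liver makes less of in inflammation, 3 were tested and none passed. The 3 were SERPINA6 (1.09, SE 0.54), RBP4 (0.55, SE 0.41) and TF (-0.36, SE 0.27). Depth limits SERPINA6, with 4 to 24 counts in a library.

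Iron and copper genes, the setting of CP and LCN2, were mostly expressed, with 12 of 14 tested at a median log2 fold change of 0.09, whereas HEPH and HEPHL1 had at most 10 counts in any library. None passed edgeR by hairpin, DESeq2 called 1 higher and DESeq2 with the block 2 higher, where these fits called 1.19% and 5.25% of all genes with an adjusted p. TFRC, the transferrin receptor, was at 663, 658 and 657 CPM in shJUP 1, 2 and 3, against 255, 419 and 359 CPM in shNC 1, 2 and 3. Its log2 fold change was 0.94 (SE 0.18), with an adjusted p of 0.331 by edgeR, 9.58e-04 by DESeq2 and 1.41e-07 by DESeq2 with the block. FTL, ferritin light chain, was at 643, 856 and 677 CPM in shJUP 1, 2 and 3, against 530, 511 and 487 CPM in shNC 1, 2 and 3, and passed only in DESeq2 with the block (adjusted p = 0.00415). FTH1, its heavy chain, was at -0.12 (SE 0.25). HMOX1, heme oxygenase 1 (1.26, SE 0.46), and the lactoferrin gene LTF (1.36, SE 0.48) did not pass, nor did ATP7A, a copper pump (-0.27, SE 0.17). Depth limits LTF, with 3 to 20 counts in a library.

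Of 19 inducing cytokines and receptors 17 were tested, 8 above and 9 below 0. DESeq2 called IL6 and LIFR higher, with the block (5.25% of all genes called) and without it (1.19%), and edgeR called neither. IL6 was at 74.4, 69.2 and 51.9 CPM in shJUP 1, 2 and 3, against 29.3, 19.5 and 28.8 CPM in shNC 1, 2 and 3. Its shJUP libraries all lay above its shNC libraries, and number 2 did not stand out, being the middle value in shJUP and the lowest in shNC. The log2 fold change was 1.33 (SE 0.20), with an adjusted p of 0.324 by edgeR, 7.4e-06 by DESeq2 and 4.74e-08 by DESeq2 with the block. LIFR, the receptor of leukemia inhibitory factor, was at 0.80 (SE 0.15, DESeq2 adjusted p = 0.00299, and 6e-04 with the block). IL6R (0.40, SE 0.21), IL1RAP (-0.27, SE 0.12), IFNGR1 (-0.28, SE 0.28), TNFRSF1A (-0.29, SE 0.30) and TNF (0.05, SE 0.47) did not pass by hairpin. TNF, unlike IL6, was highest in number 2 of both hairpins, at 8.70, 30.2 and 11.7 CPM in shJUP 1, 2 and 3 and 17.1, 20.9 and 10.9 CPM in shNC 1, 2 and 3 (adjusted p for number 0.185 by edgeR and 0.0363 by DESeq2). IFNGR1 and TNFRSF1A, receptors of interferon gamma and TNF, were also highest in number 2 of both hairpins, with adjusted p-values for number of 0.0599 by edgeR and 3.3e-05 by DESeq2 for IFNGR1 and 0.111 and 0.00218 by the same tools for TNFRSF1A.

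Of 16 transcription factors and feedback genes 14 were tested and none passed by hairpin, with NFKB2 at 0.34 (SE 0.11), RELB at 0.55 (SE 0.22), NFKBIZ at 0.31 (SE 0.23), SOCS3 at 0.46 (SE 0.36), NFKBIA at -0.22 (SE 0.39) and CEBPD at -0.23 (SE 0.55). By number edgeR called none and DESeq2 called 3, beside 6.93% of all genes. These were CEBPD (DESeq2 adjusted p = 1.95e-06), NFKBIA, the inhibitor that NF-kB itself induces (6.71e-10), and SOCS3, a feedback inhibitor of STAT3 (0.0223). CEBPD was at 7.87, 30.7 and 14.9 CPM in shJUP 1, 2 and 3, against 13.7, 35.2 and 13.9 CPM in shNC 1, 2 and 3.

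Among 20 genes that epithelia induce in inflammation, 15 were tested. By hairpin edgeR called none, whereas DESeq2 with the block called 4 higher and 2 lower, beside 5.25% of all genes called in that fit and 2.91% called lower. Higher were the neutrophil chemokines CXCL1 (log2 0.57, SE 0.16, DESeq2 adjusted p with the block 1.94e-04), CXCL8 (0.47, SE 0.24, 0.00633), CXCL2 (0.48, SE 0.49, 0.00918) and CXCL3 (0.58, SE 0.36, 0.0112). Lower were SLPI, a protease inhibitor of mucosal secretions (-0.92, SE 0.84, 1.94e-06), and TNFAIP2 (-0.49, SE 0.53, 0.00179). These genes therefore went both ways. TNFAIP3 (0.39, SE 0.17), PI3 (1.82, SE 0.98), BIRC3 (0.33, SE 0.57), ZC3H12A (-0.16, SE 0.46) and TNIP1 (-0.14, SE 0.23) did not pass by hairpin. In the edgeR fit without shNC 2, SLPI turned to 0.34 and TNFAIP2 to 0.05, and without shJUP 2 CXCL2 came to 0.00.

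By library number edgeR called 5 of the other listed genes, where 0.63% of all tested genes were called. These were 1 of 7 tested regulators and 4 of 15 tested inflammatory genes. DESeq2 called 2 of those regulators and 8 of those inflammatory genes by number, beside 6.93% of all genes with an adjusted p. SLPI was at 26.8, 115 and 23.1 CPM in shJUP 1, 2 and 3, against 40.5, 225 and 46.6 CPM in shNC 1, 2 and 3 (edgeR adjusted p = 0.0148). The others called by edgeR were TNFAIP2 (edgeR adjusted p = 0.0311), BIRC3, an inhibitor of apoptosis (0.0330), CXCL2 (0.0343) and CFI (0.0381). All were highest in number 2 of both hairpins. BIRC3 and CXCL2 were higher in shJUP 2 than in shNC 2, at 234 against 181 CPM and 119 against 96.6 CPM, and CFI, SLPI and TNFAIP2 were lower. None of the 5 kept its edgeR call without shJUP 2 or without shNC 2, and over the 6 fits that each left out 1 library SLPI was called in 3, TNFAIP2 and BIRC3 in 2 each, and CFI and CXCL2 in 1 each.

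**Figure D5:**
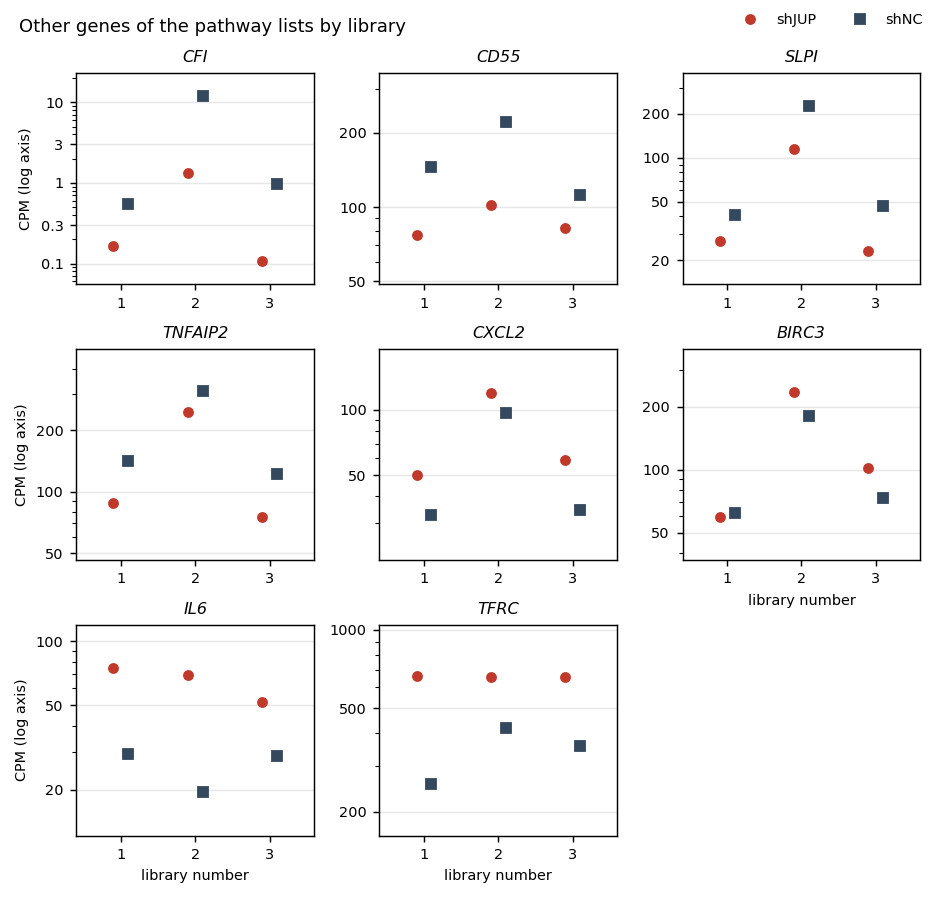
CPM (log axis) of 8 genes of the pathway lists that are not among the members, against library number, with shJUP as circles and shNC as squares. CFI, SLPI, TNFAIP2, CXCL2 and BIRC3 are highest in number 2 of both hairpins, whereas IL6 and TFRC separate the hairpins in every number.

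Markers of other cells that make these proteins were not all silent. Of 8 hepatocyte markers SERPINA1 alone reached 1 CPM, and APOA2 and TTR had 0 counts, with a summed level of 13.5 to 42.3 CPM in shJUP and 11.6 to 18.4 CPM in shNC. Of 11 leukocyte markers CD68 alone reached 1 CPM, and C1QA, C1QB, C1QC and AIF1 had 0 counts, with sums of 22.7 to 36.6 CPM in shJUP and 19.8 to 32.4 CPM in shNC. None of 6 neutrophil markers reached 1 CPM, and MPO, ELANE, S100A8 and S100A12 had 0 counts. Of 9 carcinoma and epithelial markers 7 reached 1 CPM, with sums of 1310 to 1760 CPM in shJUP and 1330 to 1540 CPM in shNC. Of 8 fibroblast markers 6 did, with sums of 269, 48.9 and 12.2 CPM in shJUP 1, 2 and 3 and 44.4, 500 and 62.1 CPM in shNC 1, 2 and 3. COL1A1, a collagen chain, carried most of that sum, at 253, 32.3 and 8.76 CPM in shJUP 1, 2 and 3, against 38.3, 401 and 49.3 CPM in shNC 1, 2 and 3, so it was high in shNC 2 but not in shJUP 2. The collagen chains COL1A2 and COL3A1 were likewise highest in shJUP 1 and in shNC 2. COL1A2 was at 7.98, 1.55 and 0.372 CPM in shJUP 1, 2 and 3, against 2.60, 26.1 and 3.97 CPM in shNC 1, 2 and 3. COL3A1 was at 5.58, 0.160 and 0.0531 CPM in shJUP 1, 2 and 3, against 0.0553, 46.0 and 0.599 CPM in shNC 1, 2 and 3. By contrast, the matrix proteoglycans DCN and LUM and the receptor PDGFRA were highest in number 2 of both hairpins, as the members were. DCN was at 0.614, 5.87 and 0.743 CPM in shJUP 1, 2 and 3, against 0.553, 7.54 and 2.45 CPM in shNC 1, 2 and 3 (adjusted p for number 0.0708 by edgeR and 1.9e-05 by DESeq2). LUM was at 1.23, 6.67 and 0.903 CPM in shJUP 1, 2 and 3, against 1.66, 15.5 and 4.41 CPM in shNC 1, 2 and 3 (0.0754 by edgeR and 3.42e-06 by DESeq2). PDGFRA was at 0.949, 2.08 and 1.06 CPM in shJUP 1, 2 and 3, against 0.884, 3.24 and 0.979 CPM in shNC 1, 2 and 3 (0.138 by edgeR and 0.334 by DESeq2). The part of these markers in the results was not tested.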

How the data were processed

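RNA of 6 SKOV3 libraries was measured by RNA sequencing of oligo(dT)-enriched RNA on a DNBSEQ instrument, per the labels' protocols. The deposited table holds unscaled expected counts for each Ensembl gene. The authors used STAR 2.7.9a, RSEM 1.3.3, edgeR 3.32.1 and DESeq2 1.26.0 per the submitters' processing notes, which state no role for any of them. The sources used here do not give the build, annotation or strand setting of the counts, so sequence windows carry the build of their own table. Of 60695 rows, 31 that held text instead of an ID were left out, and 60463 of 60664 IDs matched a symbol. Between 33.9% and 36.3% of the counts above 0 in a library were not whole, and all were rounded. The totals were 17456121, 18908278 and 18630181 counts in shJUP 1, 2 and 3, against 18157973, 19279514 and 18570520 counts in shNC 1, 2 and 3. Intervals on ratios are exact 95% binomial intervals and cover counting error only.

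The fit was edgeR 4.0.16 in R 4.3.3 with filterByExpr (15867 genes), TMM (factors 0.978 to 1.03), the quasi-likelihood test, two-sided, and Benjamini-Hochberg adjustment over all tested genes, with a threshold of 0.05. The standard error was taken from the F statistic of the same test. P-values measure the spread between these replicates. Library number was tested as 2 coefficients beside the hairpin. In fits that leave out 1 library, the lone library left in a number is assumed to vary like the others. DESeq2 1.42.0, limma-voom (limma 3.58.1), other scalings and filters, a block for library number, libraries left out and summed near-identical copies were alternatives. As a check of pairing, the deviations of same-numbered libraries from their group means had correlations of 0.16 (number 1), 0.56 (number 2) and 0.25 (number 3). The numbers come from the sample titles. shJUP 3 correlated more with shNC 1 (0.44) than with its own number, and shJUP 1 more with shNC 3 (0.19). Pairing by number was thus clear for number 2 only. The main hairpin fit was unpaired, whereas the ratios within a number, the block fits and the fits by library number took same-numbered libraries together. No replicate pair matched within sampling noise (chi-square per gene 10 to 61.2). After the main fit, the scripts were also run on data simulated with known changes, using the levels and dispersions of that fit.

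The 9 members and all gene lists were chosen with earlier results of these data known, and some listed genes are not reported here. The genes named are the 9, JUP, IL6, members of each list that pass in any fit, up to 4 with the smallest hairpin p and 2 with the smallest number p, and the closest genes in pattern. Genes at 0 counts, overlapping genes, C1RL, C2, C3AR1, HEPH, HEPHL1 and single cell type markers are named beside these for context, after their values were seen. Coding sequences were compared with Biopython 1.88.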

Additional observations from a re-analysis of the deposited data

How the results depend on the processing

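By hairpin edgeR called 0 genes, also with other scalings, the stricter filter, limma-voom and each library left out (0 to 0). It called 5 with no filter, 1 with the replicate block, and 49 when shJUP 2 and shNC 2 were left out together. DESeq2 called 179 genes, 696 once the replicate block was added, and 643 when shJUP 2 and shNC 2 were left out. By library number edgeR called 100 genes, 470 with no filter, 1046 with the DESeq2 likelihood-ratio test, and 3 (without shNC 2) to 217 (without shJUP 1) with 1 library left out. SERPINA3, CFI and CD55 stayed lower and IL6, LIFR and TFRC higher in shJUP in every hairpin setting that tested them.

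Log2 fold changes that turned were, for C3, 0.01 with no filter, 0.00 with DESeq2, 0.24 with limma-voom, 0.23 and 0.24 with the replicate block in edgeR and DESeq2, and 0.36 without both number 2 libraries. LCN2 turned to 0.37, 0.15, 0.22 and 1.37 in the last 4 of those settings, CFD to -0.02, 0.00, -0.01 and -0.33, and TNF to -0.11, -0.09, -0.09 and -0.44 (-0.45 by DESeq2). Without both number 2 libraries edgeR and DESeq2 gave -0.39 and -0.40 for SAA1, 0.20 and 0.19 for C4B, 0.04 in both for C5, and -0.30 and -0.31 for PI3. C4A was -0.04 with C4B summed into it. The cause was not tested.

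With 1 library left out, the lowest and highest values of genes that turned were -1.79 and 2.14 for C3, -3.27 and 0.93 for CFB, -2.66 and 0.23 for C1R, -1.91 and 0.06 for C1S, -5.86 and 1.59 for CP, -2.09 and 2.08 for SAA1, -1.57 and 1.90 for SAA2, -1.65 and 2.52 for LCN2, -0.43 and 1.18 for COLEC12, -0.75 and 0.13 for C4B, -0.25 and 0.41 for C4A, -0.38 and 0.28 for CFD, -0.09 and 0.98 for SERPINA1, -0.07 and 0.45 for PTX3, -0.44 and 0.21 for HPX, -0.02 and 1.00 for SERPING1, -0.48 and 0.07 for FTH1, -0.48 and 0.14 for TNFRSF1A, -0.68 and 0.37 for TNF, -0.70 and 0.16 for NFKBIA, -0.88 and 0.37 for CEBPD, -0.42 and 2.31 for PI3, -2.06 and 0.34 for SLPI, -1.23 and 0.05 for TNFAIP2, 0.00 and 1.18 for CXCL2, -0.38 and 0.97 for BIRC3, -0.86 and 0.18 for ZC3H12A and -0.43 and 0.02 for TNIP1. Members with 1 to 5 counts in a library, SERPINA3 and SAA2, are limited by depth there.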
